A study of Mus musculus with 3 samples.

Results

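The aminoacyl-tRNA synthetases are described here in livers of mice after warm ischemia and after reperfusion. The 36 genes were taken by symbol from the 23361 genes of the expression tables, and every one of the 36 symbols was found once. Of these genes, 20 encode cytosolic enzymes or enzyme subunits and 16, whose symbols end in 2, encode mitochondrial enzymes. All 36 were listed with the status OK in every library, and 33 had an FPKM (sequenced fragments scaled to transcript length and library size) of at least 1 in every library. Of the remaining 3, Mars2 reached 1 only in IR and Pars2 only in WI, and Wars2 stayed under 1 throughout, so that 35 of the 36 passed a filter of FPKM at least 1 in at least 1 library, as did 10792 of all genes.

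Each synthetase joins 1 amino acid to its tRNAs, so that ribosomes can read the genetic code. Cytosolic and mitochondrial ribosomes are supplied by separate sets of enzymes, all encoded in the nucleus. Gars and Kars each encode both forms, and mitochondrial glutaminyl-tRNA is made by an amidotransferase in place of a synthetase. A group of the cytosolic enzymes is held together by the scaffold proteins Aimp1, Aimp2 and Eef1e1 in the multisynthetase complex. Uncharged tRNA and endoplasmic reticulum stress activate kinases of the translation factor eIF2alpha, and the transcription factor ATF4 that follows is known to raise many cytosolic synthetase genes together with genes of amino acid synthesis and uptake.

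The 3 libraries came from livers of C57BL/6J mice labelled male, 8 to 10 weeks old and fasted for 12 h, all anaesthetised with chloral hydrate. Sham mice underwent laparotomy without occlusion, and their livers were taken after the same 90 min. In WI, the vessels to the left and median lobes, about 70% of the liver, were clamped for 90 min. In IR, the same 90 min of ischemia was followed by 2 h of reperfusion. No more anaesthetic was given during reperfusion. No sham library was matched to IR in time, so that reperfusion and the time since anaesthesia and surgery cannot be told apart.

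There was 1 library for each condition. No spread between mice could be estimated and no test was made, so every difference is a difference between 2 libraries. The study had 6 mice per group, and whether a library held RNA from 1 mouse or several is not stated. The tables give 95% bounds from the authors' counting model for each FPKM, and the distance from the FPKM to its bound was at the median 49.96 to 50.58% of the FPKM of the 36 genes. Depth per gene is unknown because no counts are given.

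Sex-linked genes went against the labels. Y-linked Ddx3y was at an FPKM of 0, 0.00849 and 8.58 in Sham, WI and IR, and Eif2s3y at 0, 0 and 13.2. Xist, the RNA that silences 1 X chromosome in female cells, was at 18.9, 20.1 and 1.29. Sham and WI were thus alike in this respect and IR differed from both. In every comparison with IR, this difference between the animals and the treatment cannot be told apart, and WI against Sham is the only comparison without it.

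Cell type markers also moved. The 7 neutrophil markers found in the tables summed to an FPKM of 25.7, 19.5 and 471 in Sham, WI and IR. The 8 markers of Kupffer cells and macrophages summed to 497, 254 and 165. Neither list had a marker at 0, and the 8 hepatocyte markers summed to 17078, 13601 and 21915, with Alb listed at 0 in all 3 libraries because its locus held too many fragments to be processed. Sinusoidal endothelial markers summed to 126, 91.8 and 103, stellate cell markers to 145, 104 and 106, cholangiocyte markers to 2.52, 3.33 and 7.08 and lymphocyte markers to 5.56, 4.38 and 1.89. Such sums are carried by the most abundant markers. In IR against Sham, 3 hepatocyte markers were higher and 4 lower. The numbers were 1 and 7 for Kupffer cells and macrophages, 1 and 5 for endothelial and 2 and 4 for stellate cells. All neutrophil and cholangiocyte markers were higher and all lymphocyte markers lower. Of all genes, 54.4% were higher and 45.6% lower. In bulk liver, fewer cells of a type and less RNA per cell cannot be told apart. Synthetases are made in all of these cells, and the part of the changing cell mixture in the values below was not tested.

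The cytosolic synthetases stood above the mitochondrial ones in level. Their median FPKM was 11.8 in Sham, 12.3 in WI and 18.6 in IR, against 3.58, 4.803 and 4.10 for the mitochondrial genes. The summed FPKM of the 20 cytosolic genes was 275, 304 and 403 and that of the 16 mitochondrial genes 117, 132 and 120. The ratio of these sums was 2.34 in Sham, 2.29 in WI and 3.36 in IR. A single gene, Lars2, the mitochondrial leucine enzyme, made up 39.6, 36.5 and 33.9% of the mitochondrial sum. Without it the ratio was 3.88, 3.61 and 5.09, so that IR was again the highest library and WI the lowest.

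**Figure D1:**
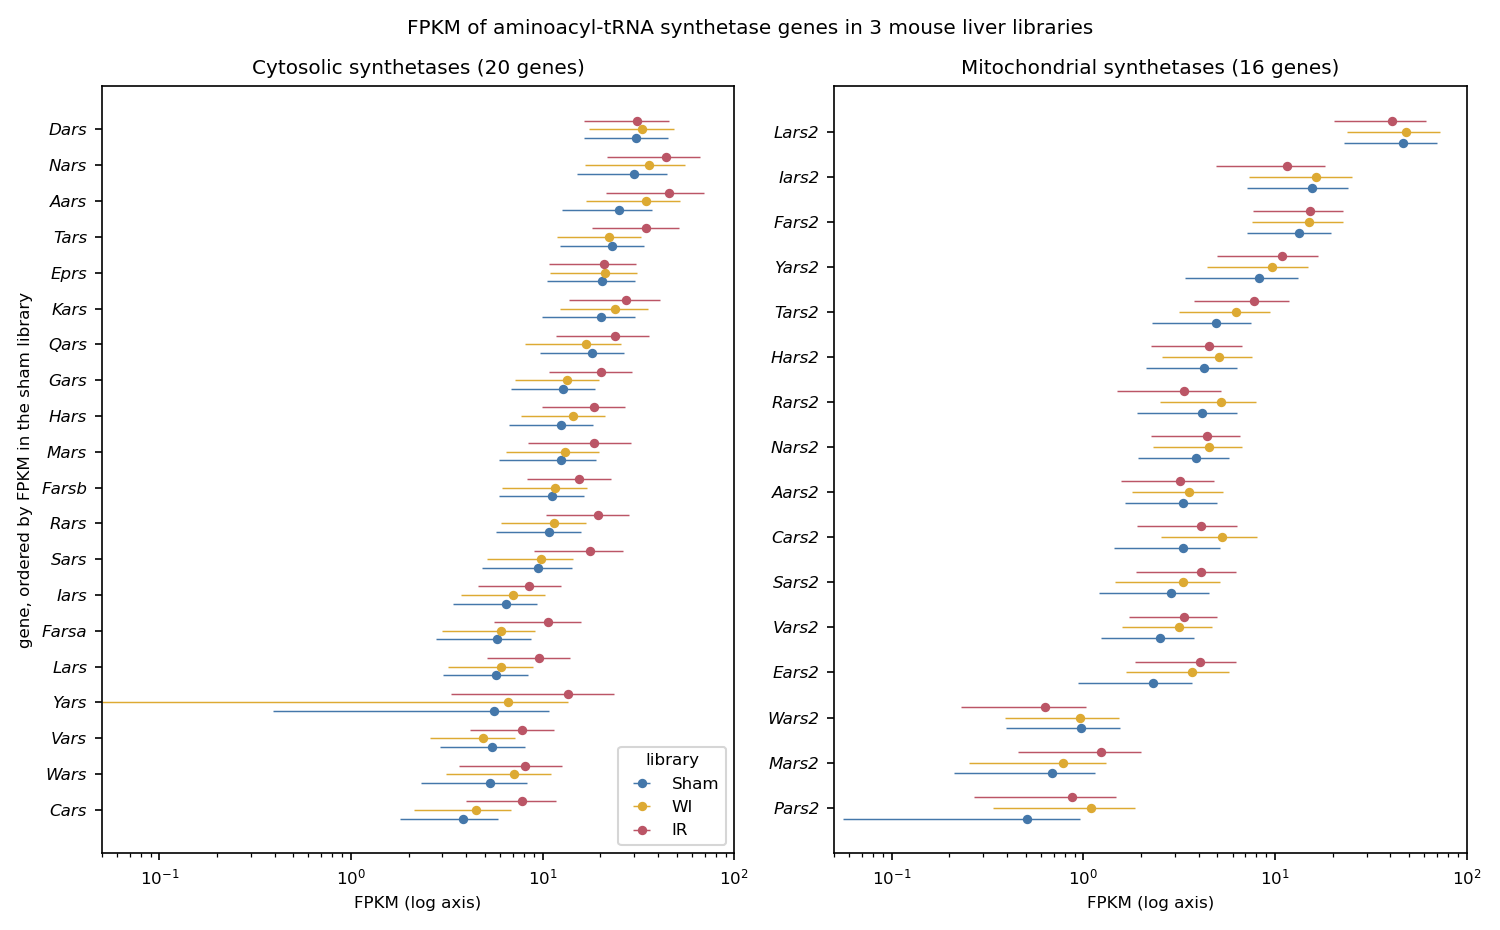
FPKM of the 20 cytosolic (left) and 16 mitochondrial (right) synthetase genes in the Sham, WI and IR libraries on a log axis, ordered by the Sham value. Points are the deposited FPKM of 1 library each and lines their 95% bounds (the lower bound of Yars in WI is 0 and runs off the axis). In 18 of 20 cytosolic genes the IR point lies farthest to the right, against 7 of 16 mitochondrial genes, and the bounds of every gene overlap between libraries.

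In the cytosolic set the IR library was the highest in 18 of 20 genes and WI in the other two, Dars and Eprs. In the mitochondrial set IR was the highest in 7 of 16 genes, WI in 8 and Sham in 1, Wars2. Among all genes that passed the filter, 44.3% were highest in IR, 27% in WI and 28.7% in Sham. The commonest order of the libraries was Sham, then WI, then IR, which held for 15 cytosolic and 7 mitochondrial genes. In Qars, Tars and Vars, WI was the lowest library and IR the highest. The order with IR lowest and WI highest was seen in 4 genes, Aars2, Iars2, Lars2 and Rars2, all of them mitochondrial. The share of all genes with each full order was not computed, so the counts by order cannot be read against it.

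Ischemia alone was compared with Sham first. Differences are given as differences in log2(FPKM + 1), which understates the change of genes with low FPKM. The median difference was 0.08 for the 20 cytosolic genes and 0.20 for the 16 mitochondrial genes, against 0.02 for all genes. In WI, 17 of 20 cytosolic and 15 of 16 mitochondrial genes were higher than in Sham by any amount, where 52.5% of all genes were higher and 47.3% lower. No synthetase differed by 1.5-fold or more in FPKM + 1 in either direction, where 3.14% of all genes were higher and 4.27% lower by that much, and 0.751% and 1.1% by 2-fold. The exceptions to the upward direction were Qars, Tars, Vars and Wars2.

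The largest differences between WI and Sham in the family were in Cars2, Ears2, Pars2 and Aars. Cars2, the mitochondrial cysteine enzyme, had an FPKM of 3.29 in Sham, 5.31 in WI and 4.13 in IR, a WI minus Sham difference of 0.56. Ears2, the mitochondrial glutamate enzyme, had an FPKM of 2.31, 3.71 and 4.06, a difference of 0.51. Pars2, the mitochondrial proline enzyme and the lowest of the family in Sham, had an FPKM of 0.507, 1.09 and 0.874, a difference of 0.47. Pars2 and Cars2 were highest after ischemia alone, whereas Ears2 was highest in IR. Aars, which charges alanine in the cytosol, had an FPKM of 24.9 in Sham, 34.5 in WI and 45.5 in IR, and its WI minus Sham difference of 0.45 was the largest among cytosolic genes. Wars, the tryptophan enzyme, which is known to be induced by interferon-gamma, had an FPKM of 5.29, 7.13 and 8.14, a WI minus Sham difference of 0.37.

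The cytosolic and mitochondrial genes separated when IR was compared with WI. The median difference in log2(FPKM + 1) was 0.47 for the cytosolic genes and −0.08 for the mitochondrial genes, against 0.03 for all genes that passed the filter. Without Wars2, which did not pass it, the mitochondrial median was −0.04. Of the cytosolic genes, 18 of 20 were higher in IR and 2 were lower, and of the mitochondrial genes 7 were higher and 9 lower. Among all genes 52.4% were higher and 47.5% lower. Of the cytosolic genes, 6 were higher by at least 1.5-fold, namely Cars, Farsa, Rars, Sars, Tars and Yars, where 12.4% of all genes were, and no mitochondrial gene was. No synthetase was lower by 1.5-fold, where 7.4% of all genes were, and none was 2-fold higher or lower, where 5.78% and 1.43% were.

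**Figure D2:**
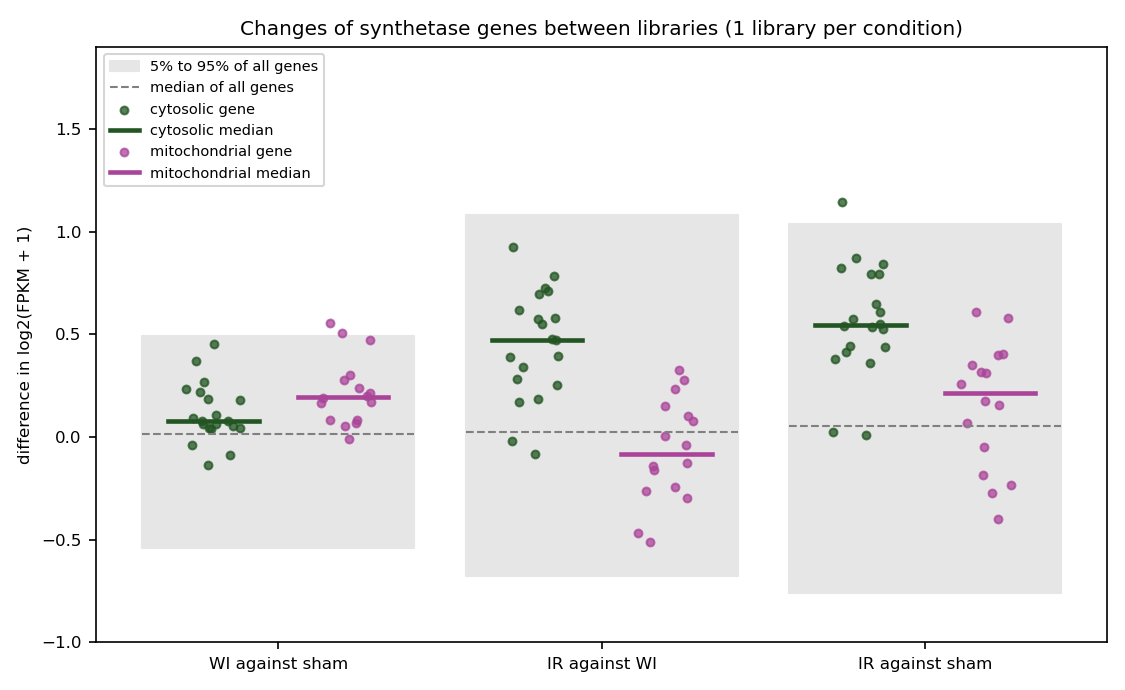
Differences in log2(FPKM + 1) of 20 cytosolic (green) and 16 mitochondrial (purple) synthetase genes in each comparison of 2 libraries. Each point is a gene, thick lines are medians, the grey band runs from the 5% to the 95% quantile of 10792 genes and the dashed line is their median. In IR against WI the cytosolic median is 0.47 and the mitochondrial median −0.08, and most points lie inside the band.

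Against Sham, IR was higher in all 20 cytosolic genes and in 11 of 16 mitochondrial genes, where 54.4% of all genes were higher and 45.6% lower. The median differences in log2(FPKM + 1) were 0.55 and 0.22, against 0.05 for all genes. By at least 1.5-fold, 8 cytosolic genes were higher (Aars, Cars, Farsa, Gars, Lars, Rars, Sars and Yars) and 1 mitochondrial gene, Ears2, and the share of all genes was 14.3%. None was lower by 1.5-fold, where 9.49% of all genes were. Yars was the only synthetase higher by at least 2-fold in FPKM + 1, where 5.35% of all genes were higher and 2.15% lower by that much. The comparisons of IR with WI and with Sham share the IR library and are not independent of each other.

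In no comparison did the 95% bounds of any of the 36 genes fail to overlap. For all genes, the share whose bounds did not overlap with the later library higher was 0.195% in WI against Sham, 3.22% in IR against WI and 2.7% in IR against Sham. With the later library lower it was 0.482, 0.398 and 1.12%.

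The direction of these changes depended on how the libraries were scaled. The summed FPKM of all genes was 475754 in Sham, 487912 in WI and 712423 in IR. The 10 most abundant genes held 14.9, 14.8 and 20.8% of these sums. Loci with too many fragments to be processed numbered 1, 1 and 7, so that the sums did not leave out the same number of loci. When each library was brought to a common sum, the median gene was lower in IR than in WI by −0.41 and than in Sham by −0.42 on the log2 scale. On that scale the cytosolic median was −0.042 in IR against WI and 0.0047 in IR against Sham, and the mitochondrial medians were −0.48 and −0.25. Relative to the median of all genes, the cytosolic genes were at 0.45 with the deposited FPKM and at 0.37 with the common sum in IR against WI, and 18 of 20 lay above that median in both. The mitochondrial genes were at −0.11 and −0.07, with 6 of 16 above it in both. As a share of the summed FPKM of all genes, the 20 cytosolic genes made up 0.0577, 0.0622 and 0.0566% in Sham, WI and IR, and the 16 mitochondrial genes 0.0246, 0.0271 and 0.0168%. The separation of the sets was thus seen under both scales, but a higher level of the cytosolic genes in IR was not seen with the common sum. It was seen when libraries were rescaled by their median ratio over genes. The cytosolic median was then 0.47 in IR against WI, with 18 of 20 genes higher, and 0.54 in IR against Sham, with 20 of 20 higher. The mitochondrial medians were −0.09 and 0.21.

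Of the 8 cytosolic genes that were 1.5-fold higher in IR than in Sham, Yars, the tyrosine enzyme, differed most and was also the least certain. Its FPKM was 5.56 in Sham (bounds 0.392 to 10.7), 6.63 in WI (0 to 13.5) and 13.5 in IR (3.34 to 23.7), which is 2.21-fold in FPKM + 1 from Sham to IR. Relative to its FPKM, its bounds were the widest among the cytosolic genes in every library. Cars, the cysteine enzyme and the lowest cytosolic gene in Sham, had an FPKM of 3.83 (1.79 to 5.86), 4.47 (2.14 to 6.80) and 7.85 (3.99 to 11.7), a 1.83-fold difference between Sham and IR. In both, most of the difference lay between WI and IR.

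Aars differed by 1.79-fold between Sham (24.9, bounds 12.6 to 37.3) and IR (45.5, bounds 21.3 to 69.7). Unlike the others of this group, its step from Sham to WI (0.45) was larger than its step from WI to IR (0.39). Sars, which charges serine tRNA and also selenocysteine tRNA, had an FPKM of 9.49 (4.82 to 14.2), 9.78 (5.13 to 14.4) and 17.6 (8.99 to 26.2), a 1.77-fold difference between Sham and IR. Rars, the arginine enzyme of the multisynthetase complex, had an FPKM of 10.7 (5.69 to 15.8), 11.4 (6.06 to 16.8) and 19.4 (10.4 to 28.3), a 1.73-fold difference. Sham and WI lay close together in both, and only IR stood above them.

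Farsa and Farsb encode the alpha and beta subunits of the same cytosolic phenylalanine enzyme. Farsa had an FPKM of 5.76 (2.79 to 8.73), 6.07 (2.98 to 9.16) and 10.7 (5.60 to 15.8), and Farsb 11.2, 11.6 and 15.5. The subunits thus had the same order of libraries, with an IR minus WI difference of 0.73 for Farsa and 0.39 for Farsb. Lars, the leucine enzyme, which also acts as a leucine sensor for mTORC1, had an FPKM of 5.71 (3.02 to 8.40), 6.08 (3.23 to 8.94) and 9.53 (5.12 to 13.9). Gars, the glycine enzyme of both compartments, had an FPKM of 12.8 (6.88 to 18.8), 13.4 (7.17 to 19.6) and 20.1 (10.8 to 29.4). Tars, the threonine enzyme, had an FPKM of 23.0 (12.3 to 33.7), 22.3 (11.9 to 32.7) and 34.8 (18.2 to 51.4), so that IR was 1.53-fold above WI and 1.49-fold above Sham in FPKM + 1. In these 3 genes, as in Rars and Sars, Sham and WI differed by less than 0.1 in log2(FPKM + 1).

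The other cytosolic genes differed by less than 1.5-fold in FPKM + 1 in every comparison. Nars, the asparagine enzyme, had an FPKM of 29.8 in Sham, 36.1 in WI and 44.2 in IR, and Kars, which supplies lysyl-tRNA to both compartments, 20.2, 23.9 and 27.3. Hars, the histidine enzyme, had 12.5, 14.4 and 18.5. These 3 genes were lowest in Sham and highest in IR, with WI between, as was Wars. Mars, the methionine enzyme, had 12.5, 13.1 and 18.6, and Iars, the isoleucine enzyme, 6.41, 6.98 and 8.51. Qars, the glutamine enzyme, had 18.1, 16.9 and 23.9, and Vars, the valine enzyme, 5.47, 4.89 and 7.79. Qars and Vars, like Tars, were lowest in WI.

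Dars and Eprs stood apart from the rest of the cytosolic set. Eprs encodes a fused enzyme for glutamate and proline, and its FPKM was 20.4 (10.6 to 30.2), 21.1 (10.9 to 31.2) and 20.8 (10.8 to 30.8). Dars, the aspartate enzyme, had an FPKM of 30.8 (16.4 to 45.3), 32.9 (17.5 to 48.4) and 31.1 (16.5 to 45.7). They had the smallest range over the 3 libraries of all 36 genes, 0.04 for Eprs and 0.09 for Dars in log2(FPKM + 1). Both proteins belong to the multisynthetase complex.

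Members of the complex and the other cytosolic enzymes were set side by side. The IR minus WI median was 0.36 for the 8 genes of the complex (Dars, Eprs, Iars, Kars, Lars, Mars, Qars and Rars) and 0.57 for the 12 genes outside it. In the complex 6 of 8 genes were higher in IR, and outside it 12 of 12. The ranges overlapped, from −0.08 to 0.71 in the complex and from 0.17 to 0.93 outside it. Of the scaffold genes, Eef1e1 had an FPKM of 7.36, 7.91 and 14.9 in Sham, WI and IR, Aimp1 20.05, 19.999 and 23.9 and Aimp2 5.46, 7.14 and 9.36. The bounds of Aimp2 were wide, with a lower bound of 0 in Sham and WI. All 3 scaffolds were higher in IR than in WI, Eef1e1 alone by 1.5-fold.

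Synthetases fall into 2 structural classes by the fold of the catalytic domain. The IR minus WI median was 0.57 for 9 cytosolic class I genes and 0.39 for 10 class II genes, with Eprs counted in neither because its domains belong to 1 class each. Among the mitochondrial genes it was −0.24 for 9 class I and −0.04 for 7 class II genes. Without Wars2, which did not pass the filter, the mitochondrial class I median was −0.08. In IR against Sham the medians were 0.54 and 0.56 for cytosolic class I and II and 0.26 and 0.18 for mitochondrial class I and II, so that neither order of the classes held in both comparisons.

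The mitochondrial genes went in both directions. Lars2 was the highest gene of the whole family in Sham and WI, with an FPKM of 46.4 in Sham (22.8 to 69.95), 48.3 in WI (23.6 to 72.9) and 40.7 in IR (20.3 to 61.0). Rars2, the arginine enzyme, had an FPKM of 4.14, 5.23 and 3.37, and its IR minus WI difference of −0.51 was the lowest of the family. Iars2, the isoleucine enzyme, had an FPKM of 15.5, 16.3 and 11.5, a difference of −0.47. Each of these 3 genes was lower in IR than in Sham as well as than in WI.

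The largest upward differences from WI to IR in the mitochondrial set were in Mars2, Tars2 and Sars2. Mars2, the methionine enzyme, had an FPKM of 0.682 (0.211 to 1.15), 0.779 (0.253 to 1.30) and 1.23 (0.458 to 2.001), and it passed the filter through the IR library alone. Tars2, the threonine enzyme, had 4.89, 6.27 and 7.81, and Sars2, the serine enzyme, 2.85, 3.32 and 4.08. In all of them WI lay between Sham and IR. Ears2 (bounds 0.932 to 3.70 in Sham, 1.67 to 5.74 in WI and 1.85 to 6.26 in IR) was 1.53-fold higher in IR than in Sham in FPKM + 1, most of which lay between Sham and WI.

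Of the remaining mitochondrial genes, Fars2 and Yars2 had the higher levels. Fars2, the phenylalanine enzyme, had an FPKM of 13.3 (7.10 to 19.6), 15.1 (7.61 to 22.6) and 15.2 (7.71 to 22.7), and Yars2, the tyrosine enzyme, 8.29, 9.67 and 10.8. Vars2, for valine, had 2.51, 3.14 and 3.36. Like Sars2 and Tars2, all of them were lowest in Sham and highest in IR. Hars2, for histidine, had 4.24, 5.07 and 4.50, and Nars2, for asparagine, 3.85, 4.54 and 4.40. Aars2, for alanine, had 3.31 (1.64 to 4.98), 3.56 (1.79 to 5.33) and 3.17 (1.57 to 4.78). WI was the highest library in these 3 genes, as in Cars2 and Pars2. Wars2, for tryptophan, had 0.971 (0.397 to 1.54), 0.958 (0.388 to 1.53) and 0.631 (0.230 to 1.03) and was the only synthetase highest in Sham. The bounds of Pars2 were 0.0559 to 0.957, 0.339 to 1.85 and 0.267 to 1.48.

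Enzymes for the same amino acid were then paired, which gave 17 pairs because Eprs was set against Ears2 and Pars2, and Farsa and Farsb against Fars2. From WI to IR the cytosolic gene had the higher difference in 16 of 17 pairs, with a median of 0.50 for the cytosolic minus the mitochondrial difference in log2(FPKM + 1). The exception was Eprs against Ears2. From Sham to WI the cytosolic gene had the higher difference in 6 of 17 pairs, with a median of −0.10. The pairs with the widest separation from WI to IR were Rars and Rars2 (1.23), Cars and Cars2 (0.99), Lars and Lars2 (0.81) and Yars and Yars2 (0.78). In the arginine pair the cytosolic gene was higher and the mitochondrial gene lower in IR than in WI, which was also the case for alanine, cysteine, histidine, isoleucine, leucine, asparagine and tryptophan.

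**Figure D3:**
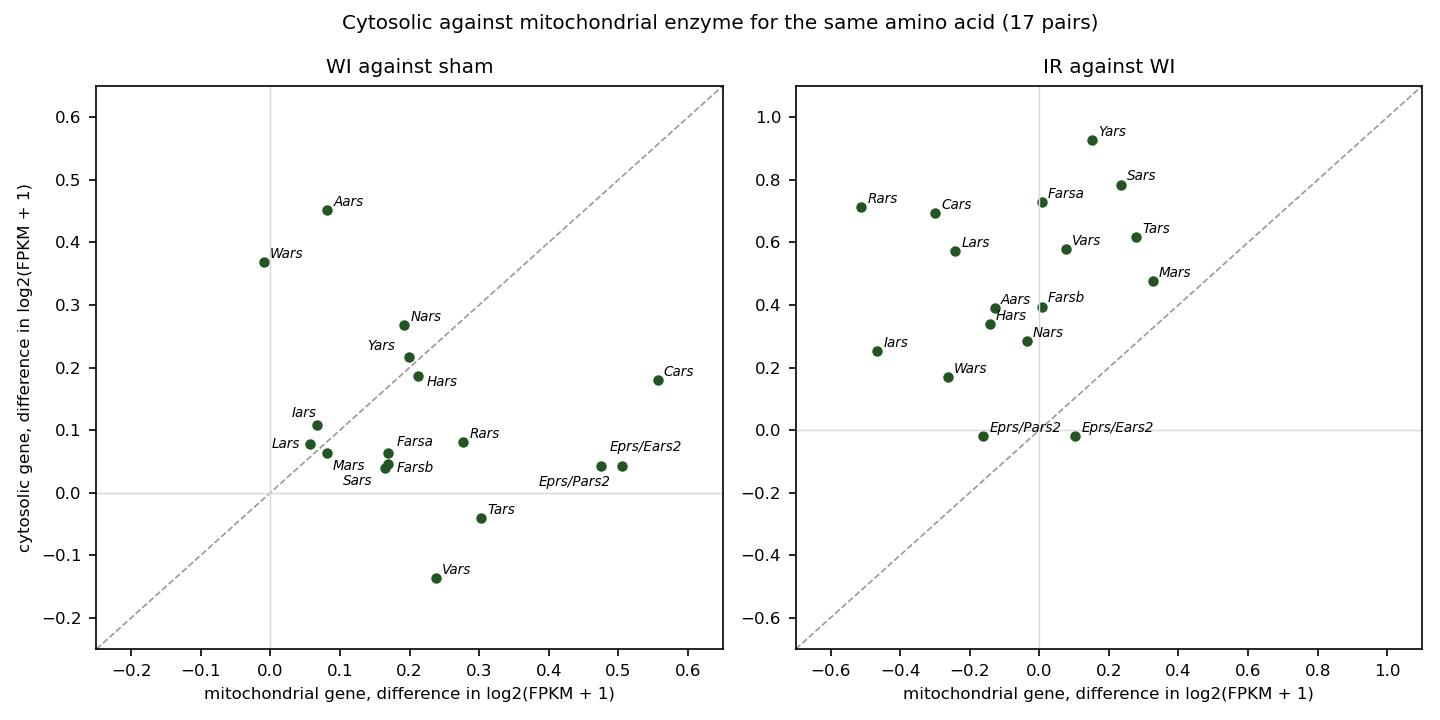
Difference in log2(FPKM + 1) of the cytosolic gene (vertical axis) against that of the mitochondrial gene for the same amino acid (horizontal axis) for WI against Sham (left) and IR against WI (right), with axes of different length. Each point is 1 of 17 pairs, labelled with the cytosolic gene, and the dashed line marks equal differences. In IR against WI, 16 of 17 points lie above the line, and in WI against Sham 6 of 17.

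In level, the cytosolic gene was above its mitochondrial counterpart in 12 of 17 pairs in Sham, 11 in WI and 14 in IR. The median ratio of FPKM was 2.96, 2.84 and 4.30. The lowest ratio in each library was that of leucine, at 0.123 in Sham, 0.126 in WI and 0.234 in IR. The isoleucine pair was also below 1 throughout, at 0.412, 0.428 and 0.737. The tyrosine pair was at 0.671, 0.686 and 1.245, so that the order of its genes was turned in IR. The comparison was made with FPKM, which is a level per transcript length.

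Promoters of the synthetases were examined for letters that ATF4 and C/EBP factors are known to bind. RefSeq promoters (GRCm38.p6, 250 bases before to 50 bases after the gene start) could be matched for 27 of the 36 genes, 13 cytosolic and 14 mitochondrial. Because 75.0% is below 80%, a comparison of the compartments by promoter is void and the matches are given as a description. Cars, Hars, Lars, Nars, Rars, Vars, Wars, Hars2 and Pars2 were not matched. The core TGATGNAA of the C/EBP-ATF response element, or TTNCATCA when read on the other strand, was found in 5 cytosolic promoters (Aars, Gars, Iars, Tars and Yars) and in 0 of the 14 mitochondrial ones. It was held by 4.51% of all 27025 genes with a promoter and by 2.92% of the 8093 that passed the FPKM filter. The stretches of 30 bases around the core are shown in the direction of each gene, because these genes include several of those that differed most, with the core in capitals. The Asns promoter is shown beside them as the textbook example of an ATF4 target.
Aars, chr8:111033840-111033869, plus strand: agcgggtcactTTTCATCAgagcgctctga
Gars, chr6:55037960-55037989, plus strand: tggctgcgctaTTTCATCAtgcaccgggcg
Iars, chr13:49682126-49682155, plus strand: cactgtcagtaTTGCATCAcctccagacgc
Tars, chr15:11399655-11399684, minus strand: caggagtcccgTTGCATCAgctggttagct
Yars, chr4:129189895-129189924, plus strand: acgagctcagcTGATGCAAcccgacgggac
Asns, chr6:7693214-7693243, minus strand: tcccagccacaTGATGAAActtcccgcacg

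In these stretches the core read TTGCATCA in Iars and Tars and TTTCATCA in Aars and Gars. The IR minus WI median was 0.55 for the 5 cytosolic genes with the core, 0.43 for the 8 whose promoter lacked it and 0.57 for the 7 that were not matched. Sars and Farsa, with IR minus WI differences of 0.78 and 0.73, lacked the core in this window, and Iars, with 0.25, held it. The core is unknown in the 7 genes that were not matched, so whether it goes with the size of the difference cannot be told. No binding was measured, and a match of letters is not evidence that a factor was bound.

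Sequences bound by other factors were also searched. The NRF1 sequence GCGCANGCG, on either strand, was found in 3 of the 13 matched cytosolic promoters (Farsb, Kars and Tars). In the mitochondrial set it was found in 4 of 14 (Iars2, Mars2, Vars2 and Wars2), and in 15.3% of promoters of genes that passed the filter. The ETS sequence CCGGAAGT, on either strand, was found in 2 cytosolic promoters (Farsa and Mars) and 1 mitochondrial promoter (Rars2), against 9.35% of the same promoters. The interferon-stimulated response element, on either strand, was found in 1 of the 13 cytosolic promoters, that of Qars, and in 0 of the 14 mitochondrial ones, against 3.92%. Wars had no matched promoter and was not searched. Tars held both the NRF1 sequence and the C/EBP-ATF core, at separate places.

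Genes of the eIF2alpha kinase and ATF4-CHOP branch were read beside the synthetases. Of 20 such genes, 13 were at least 1.5-fold higher in IR than in WI and 1, Vldlr, was lower, where 12.4% and 7.4% of all genes were, and the median was 0.86. In WI against Sham the median of this list was −0.06, with 1 gene 1.5-fold higher and 4 lower, where 3.14% and 4.27% of all genes were. Atf4 had an FPKM of 35.6 in Sham, 42.6 in WI and 96.4 in IR, and Ddit3, which encodes CHOP, 3.97, 4.81 and 19.4. Trib3, a pseudokinase that restrains ATF4, had 1.81, 2.60 and 5.65. These 3 genes had the order Sham, WI, IR. In the whole list, 7 genes were higher and 13 lower in WI than in Sham, where 52.5% and 47.3% of all genes were. The widest ranges were in Atf3 (8.72, 5.76 and 114), Ddit4 (26.9, 3.22 and 18.8), Chac1 (6.00, 2.67 and 21.3) and Ppp1r15a (7.98, 7.76 and 47.4), and all of these were lowest in WI. Of the 4 kinase genes, Eif2ak3 was higher in IR than in WI (2.77, 3.49 and 6.86) and the other three were lower. These were Eif2ak1 (15.7, 14.7 and 11.5), Eif2ak2 (3.36, 3.46 and 2.35) and Eif2ak4, whose product senses uncharged tRNA (2.06, 1.97 and 1.53).

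The genes of Mars and Ddit3 overlap in the annotation, as do Aars with Ddx19b, Farsb with Sgpp2, Hars with Hars2, Wars with Wdr25, Iars2 with Rab3gap2 and Rars2 with Orc3. The strand setting of the counting is not stated, so reads in the shared stretches cannot be assigned with certainty.

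Genes of amino acid supply were less uniform. In IR against WI, 5 of 16 genes of amino acid and one-carbon synthesis were 1.5-fold higher and 0 lower, where 12.4% and 7.4% of all genes were, with a median of 0.15. All 5 were among the 11 genes of this list that passed the filter, whose median was 0.21. Asns, which makes asparagine, had an FPKM of 0.0649, 0.176 and 4.34, and Psat1, an enzyme of serine synthesis, 0.396, 0.322 and 2.51. Mthfd2, a mitochondrial folate enzyme, had 0.372, 0.385 and 2.29. Each was below 1 in Sham and WI and above 2 in IR, so that each passed the filter through the IR library alone. Got1, the cytosolic aspartate aminotransferase, had 340, 143 and 300.1. Of 14 amino acid transporters, 2 were 1.5-fold higher in IR than in WI and 0 lower, with a median of −0.03. With 2 of 14, or 2 of the 11 that passed the filter, the share of higher genes was not far from the 12.4% of all genes. The 2 genes were Slc3a2, the heavy chain of several transporters (15.7, 14.3 and 35.8), and Slc43a1 (5.28, 3.07 and 7.69).

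**Figure D4:**
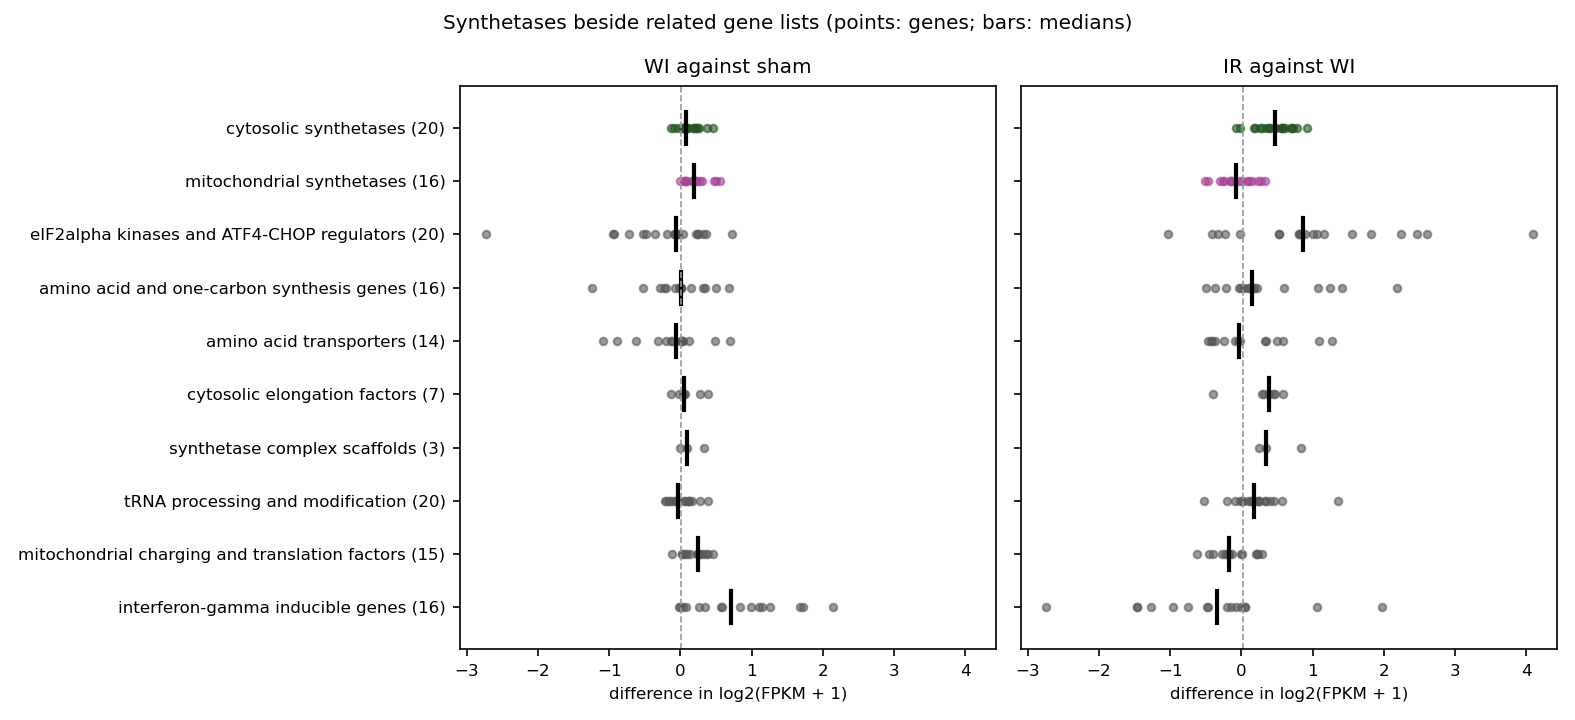
Differences in log2(FPKM + 1) of the synthetases and of 8 related gene lists for WI against Sham (left) and IR against WI (right). Points are genes, black bars are medians of each list, the numbers of genes are in brackets and the dashed line is the median of all genes. In IR against WI the medians range from −0.34 (interferon-gamma inducible genes) to 0.86 (eIF2alpha kinases and ATF4-CHOP regulators), with the cytosolic synthetases at 0.47.

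Other parts of the translation machinery were read by compartment. Of 7 cytosolic elongation factor genes, 6 were higher in IR than in WI, 1 of them by 1.5-fold, with a median of 0.39, where 52.4% of all genes were higher and 12.4% by 1.5-fold. The one that was lower was Eef2k, the kinase that inhibits Eef2 (1.21, 1.88 and 1.19), and the most abundant was Eef1a1, which carries charged tRNA to the ribosome (2196, 2295 and 2805). A list of 15 genes of mitochondrial charging and translation also held Lrpprc and Tfam, which act on mitochondrial RNA and DNA. Of these 15 genes, 10 were lower in IR than in WI and 5 higher, where 47.5% and 52.4% of all genes were. The median was −0.17, and only Lrpprc was 1.5-fold lower (22.1, 24.3 and 15.5), where 7.4% of all genes were. In WI against Sham 14 of these 15 genes were higher, where 52.5% of all genes were, with a median of 0.25, beside 0.20 for the mitochondrial synthetases. Tufm, the mitochondrial counterpart of Eef1a1, had 28.3, 39.2 and 45.8. The genes of the amidotransferase that makes mitochondrial glutaminyl-tRNA were not alike, with Qrsl1 at 1.23, 1.34 and 1.75, Pet112 at 9.14, 11.1 and 11.1 and Gatc at 8.51, 7.76 and 5.63.

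Sepsecs, which completes the synthesis of selenocysteyl-tRNA that Sars begins, had an FPKM of 13.5, 14.9 and 6.88. It was 2-fold lower in IR than in WI in FPKM + 1, where 1.43% of all genes were that much lower. Sars and Sepsecs thus went in opposite directions. Sepsecs had the widest range of 8 other synthetase-related genes. Of these, 3 were higher and 5 lower in IR than in WI, where 52.4% and 47.5% of all genes were, and the median was −0.31.

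Of 20 genes of tRNA processing, modification and export, 16 were higher and 4 lower in IR than in WI, where 52.4% and 47.5% of all genes were, with a median of 0.18. Only Trmt61a, the catalytic subunit of a tRNA methyltransferase, was 1.5-fold higher, with an FPKM of 2.51, 2.01 and 6.67. Its partner subunit Trmt6 had 2.16, 3.14 and 3.93. Xpot, which exports tRNA from the nucleus, had 12.5, 13.5 and 9.06 and was the gene of this list that was lowest in IR relative to WI.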

How the data were processed

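Liver mRNA of 3 mouse libraries (Sham, WI and IR, 1 each) was sequenced. The authors mapped read pairs to mm10 with TopHat 2.0.9 and computed FPKM per gene with Cuffdiff of Cufflinks 2.0.2. The deposited FPKM come with 95% bounds and a status. No counts were used, so no depth per gene is known, and 0 is listed where Cuffdiff could not process a locus. Strandedness is not given in the sources used here.

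Here, log2(FPKM + 1) was computed with Python 3.11.15 (numpy 2.4.6, pandas 2.3.3, matplotlib 3.10.9), and libraries were compared in pairs over 36 synthetase genes. Shares of all genes refer to the 10792 genes whose FPKM reached 1 in any library. Counts and medians of the other gene lists cover all their genes found in the tables unless stated, also those that did not pass this filter. Medians of the mitochondrial genes cover all 16 unless stated, and under the alternatives only genes that passed the filter. With 1 library per condition no test was made. Scripts were tested on simulated data. Motifs were searched on both strands of RefSeq promoters. A planned comparison of protein sequences was not made, and some genes and sequences are not reported here. Coordinates are mm10, counted from 1.

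The members and gene lists were chosen with earlier results of these data known. Values in every library with bounds were given for members differing at least 1.5-fold in FPKM + 1 in any comparison, the 4 with the smallest range, and the highest and lowest per compartment. In other lists up to 5 genes with the largest range and Atf4, Ddit3, Asns, Trib3 and the scaffolds were eligible, and Eif2ak1, Eif2ak2, Eif2ak3, Eif2ak4, Qrsl1, Pet112, Gatc and Eef1a1 were added after their values were seen. Alternatives were pseudocounts of 0.1 and 0.01, other FPKM filters, rescaled FPKM, means and reduced sets of members. The sets without Lars2 and without Yars and Mars were chosen after seeing the data.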

Additional observations from a re-analysis of the deposited data

How the results depend on the processing

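For 18 results (median differences, their separation between compartments, and numbers of genes past 1.5-fold) 11 alternatives gave 129 values, of which 109 stayed within tolerance, 18 moved beyond it and 2 changed direction. The tolerance was the error that the deposited bounds give a median, with genes taken as independent, and 1.5 times for a number of genes. It holds no spread between mice and serves only to grade the alternatives. Both that changed direction came from bringing libraries to a common summed FPKM: the cytosolic median was −0.042 in IR against WI and the mitochondrial median of the 15 genes that passed the filter −0.31 in IR against Sham, since the median of all genes moved by a like amount. The same scale gave a mitochondrial median of −0.49 in IR against WI and a cytosolic median of 0.0047 in IR against Sham. It left 0 cytosolic genes 1.5-fold higher in IR than in WI and 1 than in Sham, 0 mitochondrial genes higher than in Sham, and 6 and 3 synthetases 1.5-fold lower in IR than in WI and in Sham. With a pseudocount of 0.1 or 0.01, 3 mitochondrial genes were 1.5-fold higher in WI than in Sham, 1 in IR than in WI and 4 in IR than in Sham, and 1 synthetase was lower in IR than in WI. The cytosolic genes 1.5-fold higher then numbered 8 or 9 in IR against WI and 10 in IR against Sham. Medians here are of mitochondrial genes that passed the filter (−0.04 in IR against WI and 0.26 in IR against Sham as deposited). With FPKM of at least 5 required, the mitochondrial medians were −0.19 in IR against WI and 0.12 in IR against Sham, with 0 genes 1.5-fold higher, as fewer genes were left. The cytosolic minus mitochondrial separation ranged from 0.45 to 0.67 in IR against WI, from 0.26 to 0.42 in IR against Sham and from −0.15 to −0.12 in WI against Sham over all alternatives, including those without Lars2 and without Yars and Mars. In WI against Sham the separation as deposited (−0.12) was smaller than its tolerance of 0.191. The cytosolic median in WI against Sham (0.08, tolerance 0.136) and the mitochondrial median in IR against WI (−0.04, tolerance 0.135) were also within tolerance of 0. Setting a value against its tolerance is not a test, and a value beyond it is not thereby shown to differ between conditions. No paired analysis was possible because each condition has 1 library, and for the same reason no replicate could be left out. Low genes such as Mars2, Pars2 and Wars2 have wide bounds, and without counts the depth behind them is unknown.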

Other observations

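Wars is commonly listed with the interferon-gamma inducible genes, and these differed between WI and Sham. Of 16 such genes, 8 were at least 1.5-fold higher in WI than in Sham and 0 lower, with a median difference in log2(FPKM + 1) of 0.71, where 3.14% of all genes were higher and 4.27% lower by that much. In IR against WI, 2 were higher and 6 lower by 1.5-fold, where 12.4% and 7.4% of all genes were, with a median of −0.34. Tgtp1, an interferon-inducible GTPase, had an FPKM of 9.79 in Sham, 46.7 in WI and 6.08 in IR. Iigp1, of the same group, had 95.3, 318 and 132, and Igtp 21.5, 71.2 and 25.1. Cxcl10, a chemokine for T cells, had 3.76, 10.4 and 22.6, and Socs1, a feedback inhibitor of the pathway, 0.424, 0.3997 and 4.49. Ido1, an enzyme that degrades tryptophan, was listed at 0 in all 3 libraries, and Ifng itself was at 0.0362, 0.0987 and 0.135. Wars, with an FPKM of 5.29, 7.13 and 8.14, was higher in WI than in Sham, like most of the list, and higher still in IR, where Tgtp1, Iigp1 and Igtp were lower than in WI.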
